A study of Drosophila melanogaster and Drosophila ananassae and Drosophila pseudoobscura with 52 samples.

Results

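The sites described here are 106 A-to-I RNA editing sites of Drosophila melanogaster (D.mel) whose editing level in females was under 50% of the level in males. They were chosen from the deposited levels themselves: the male level had to be at least 10% and the female level below 50% of it. Of the 2380 sites in the tables, 721 had a D.mel level in both sexes and 330 of these reached 10% in males. The members are thus 32.1% of the sites that could have been chosen, and the other 224 sites are the set they are compared with below. Since the difference between D.mel females and males made the list, it is given as a description and was not tested. The levels in the other species and in the males of inbred D.mel lines did not enter the choice.

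Editing was measured in whole bodies of flies at 5 days of adult age by mmPCR-seq, in which cDNA around chosen sites is amplified in a microfluidic multiplex PCR and sequenced. Females and males came from 1 stock of each of 6 species: D.mel (UCSD stock 14021-0231.69), D. simulans (D.sim, 14021-0251.011), D. yakuba (D.yak, 14021-0261.01), D. ananassae (D.ana, 14024-0371.13), D. pseudoobscura (D.pse, 14011-0121.94) and D. virilis (D.vir, 15010-1051.09). Each species and sex had 2 mmPCR-seq libraries, and D.ana, D.pse and D.vir had 2 more of each sex from targeted sequencing. A further 16 libraries were made from males of 8 inbred D.mel lines, named by their numbers in the Drosophila Genetic Reference Panel (DGRP 26, 325, 352, 441, 721, 774, 786 and 804), 2 per line, and no females of these lines were measured.

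The species tables hold 1 level per site, species and sex, which is the authors' value with no replicate behind it that could be seen, so levels of the species carry no SD. No table holds read counts. The depth behind a level is known only from the authors' minimum of 50 reads, and no counting interval was computed. In whole bodies, a lower editing level in each cell and a smaller share of the transcript coming from the cells that edit it cannot be told apart. The tables hold editing levels alone, so the labelled sexes could not be checked against marker genes.

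A-to-I editing is carried out by ADAR, an enzyme that binds double-stranded RNA and deaminates adenosine to inosine. Inosine pairs like guanosine, so an edited position is read as G in cDNA, and the editing level is the share of reads with G. In flies ADAR acts mainly in the nervous system, where many edited transcripts encode ion channels and parts of the machinery of synaptic release. The same transcript can be edited to very different extents in different tissues, and a whole-body level averages over them, ovaries in females and testes in males included.

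Positions are those of the D.mel genome build named in the submitters' processing notes, dm3, and sites are called by chromosome and position. Genes, exons and UTRs were not assigned, since the annotation used here belongs to another build. In the study's list of D.mel primers, 87 of the 106 members are themselves the target of a primer pair, and the other 19 are not listed as targets. The primers of the members on which the results turn are shown because they fix the transcript fragment that was read. They are written 5′ to 3′ in lower case, with no part singled out. The first 5 pairs belong to sites among the 12 largest differences, the next 3 to a group of 9 neighbouring members on the X chromosome, and the last pair to a site that differed strongly between lines.
X:8297352 forward: tactcgggattgctcaagttt
X:8297352 reverse: tgagcggaacctacttaaaagaga
2L:411895 forward: caatgatcagcacatgggagt
2L:411895 reverse: agcaatcgcagaagtttcac
3R:16846284 forward: aaacggattcctcatgcctaa
3R:16846284 reverse: ctttgcgccgtttaacagt
2L:13189312 forward: catgccgtcgactcggatc
2L:13189312 reverse: gagagcagttcctggttaactc
X:818310 forward: aggctgccgaaaatagc
X:818310 reverse: gatcgatgggagatgaatcgt
X:21500480 forward: gcattcacccgaaactgtaac
X:21500480 reverse: tggtgagttaacttttcgctaa
X:21500535 forward: acttgcggttatcgctaactt
X:21500535 reverse: tcgacctatacgtttcacaattc
X:21500764 forward: tgttcattcacaattcaccac
X:21500764 reverse: tatagcagtgctggccatatcta
X:19535625 forward: ataccgttccttgttccttgt
X:19535625 reverse: aatacagatccacccagtaca

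Among the members, the median editing level was 4.6% in D.mel females (0.35% to 24.4%) and 19.9% in D.mel males (10.2% to 53.8%). Members were thus sites of low to middle level in males. At the other 224 sites the median was 35.8% in females and 44.0% in males. The female level was a median of 21.4% of the male level in members, with quartiles of 14.1% and 37.0%, against 89.7% at the other sites. The list has no gap at its edge. The female level was 40% to 50% of the male level at 19 sites and 50% to 60% at 25 sites. Among steps of 10 percentage points below 100%, the fullest were 10% to 20%, with 41 sites, and 90% to 100%, with 68. A further 42 sites were at 100% or more after rounding. The members just inside the limit were 2L:7230012, where females had 49.4% of the male level, 3R:528296 (48.3%) and 3R:27667009 (48.0%). Just outside it were X:1272312 (50.6%), X:11864579 (50.6%) and 3R:4212460 (50.7%). At the limit of the male level, 3R:2281712 had 2.20% in females and 10.15% in males, and 3L:13923052 had 0.35% in females and 10.15% in males. Just under it lay 2R:8808830, with 0.95% in females and 9.75% in males, and 2L:8052588, with 2.45% in females and 9.65% in males.

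**Figure D1:**
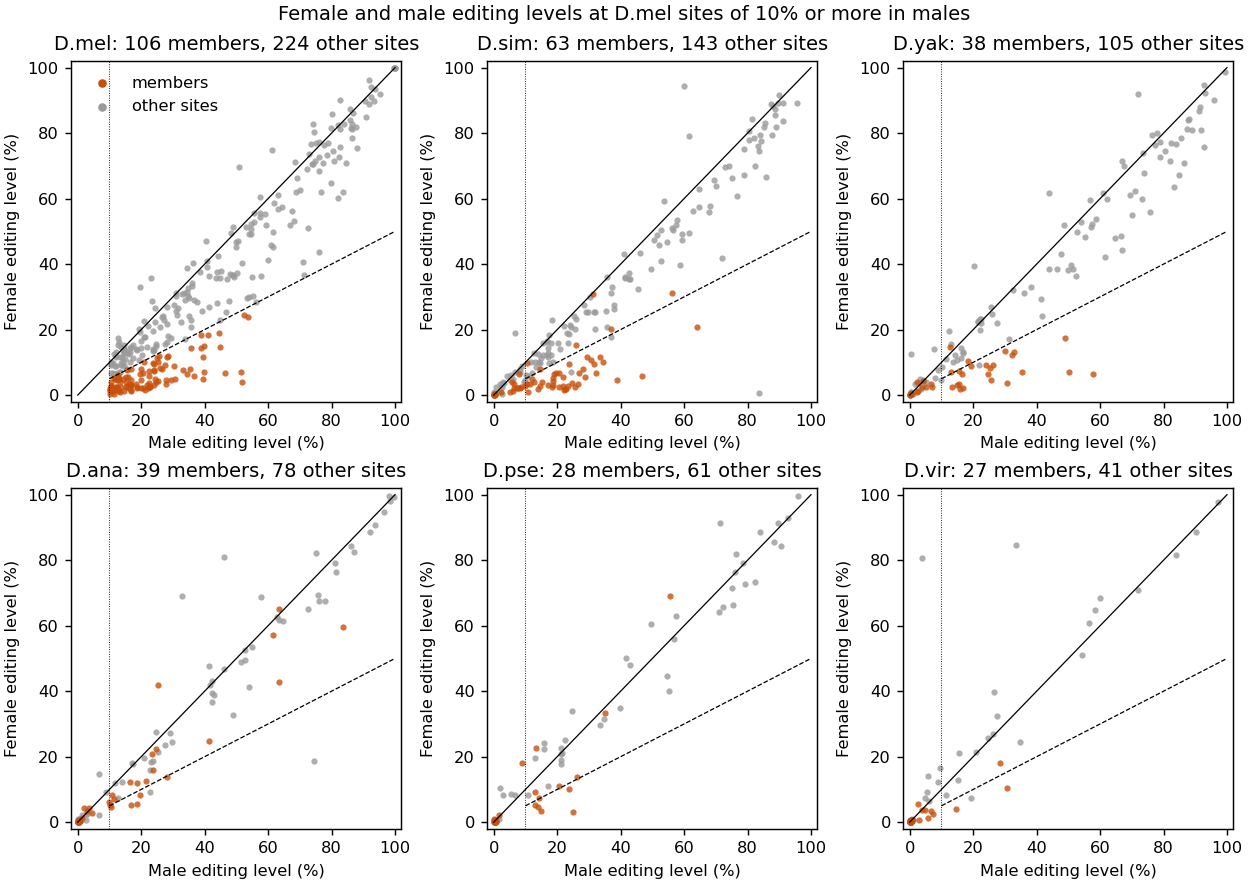
Editing level in females (vertical axis, %) against males (horizontal axis, %) of each species, for the 106 members (orange) and the 224 other sites (grey) that have both values. The solid line marks equal levels, the dashed line a female level of 50% of the male level and the dotted line a male level of 10%; the D.mel panel shows the choice itself, and in D.sim and D.yak most members at 10% or more in males again lie under the dashed line.

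The widest gap between the sexes was at X:8297352, edited at 4.10% in D.mel females and 51.65% in D.mel males. 2L:411895 had 7.20% in females and 51.55% in males, and 3R:16844415 had 6.70% in females and 46.40% in males. In each of these, an RNA that was edited in about every other male read was edited in a small share of female reads. 3R:16846284, which lies under 2 kb from 3R:16844415, had 5.00% in females and 39.45% in males. X:2111839 had 6.95% in females and 39.85% in males, and 2L:13189312 had 5.80% in females and 36.80% in males. At 2R:17203191, 2R:20800371 and 4:895009 the female level was higher than at those sites: 14.75%, 23.95% and 24.45% in females, with 44.75%, 53.75% and 52.55% in males. At these 3 sites the female level was above that of the 6 sites before them. The 12 sites end with X:818310 (6.40% in females, 34.50% in males), 2L:17371342 (11.65% in females, 39.55% in males) and 3L:9885234 (8.0% in females, 35.40% in males). In relative terms the gap was widest at other, less edited members: 3L:13923052 had 3.45% of the male level in females.

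**Figure D2:**
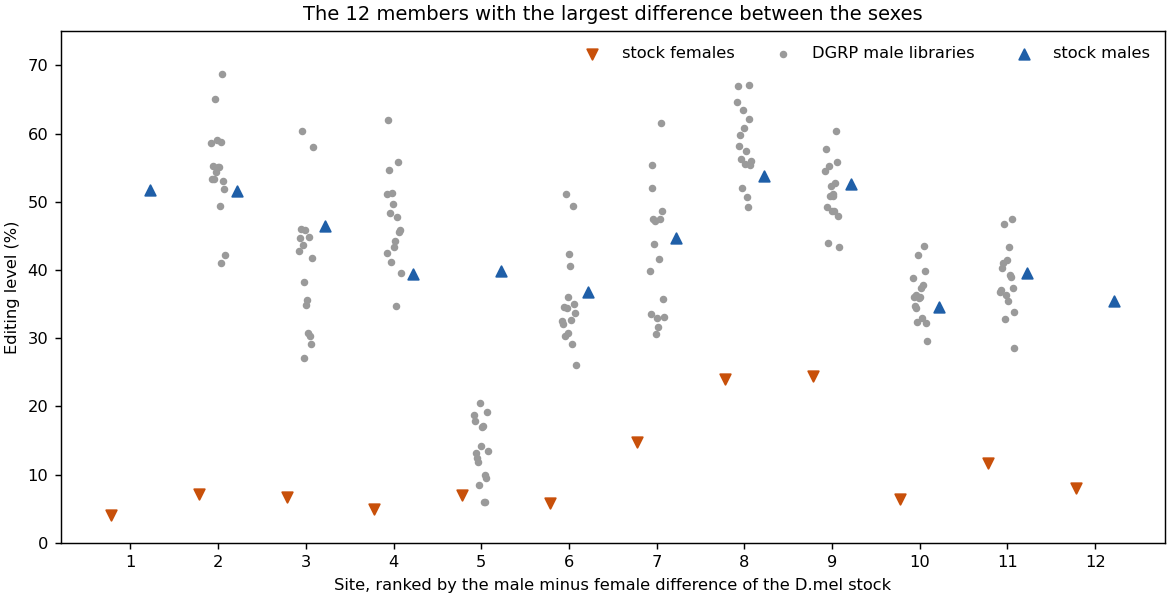
Editing level (%) at the 12 members with the largest male minus female difference, ranked 1 to 12 in the order in which the text gives them, in D.mel stock females (triangles down), each DGRP male library (grey points, up to 16) and D.mel stock males (triangles up). The female value lies under every grey point at each site with DGRP values except the fifth, X:2111839, where the female level is 6.95% and the DGRP libraries run from 5.90% to 20.5%.

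The members occur on every chromosome arm, with 30 on X, 26 on 3R, 24 on 2R, 13 on 2L, 12 on 3L and 1 on chromosome 4. On X, 37.5% of the 80 sites at 10% or more in males were members, close to 36.1% on 3R and 35.8% on 2R. On 2L and 3L the share was 24.5% each. These shares are descriptive and share transcripts among themselves.

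Members had a close neighbour less often than all sites did, but the close neighbours they had were members. Of the 106, 28 (26.4%) had another site at 10% or more in males within 50 bp, against 143 of the 330 sites (43.3%). At all 28 that neighbour included a member, and none of the 224 other sites lay within 50 bp of a member. Within 350 bp of a member there was 1 other site, 3R:20533145, with 60.5% in females and 57.55% in males. It lies 60 bp from the member 3R:20533205, which had 5.55% in females and 12.55% in males. Neighbouring sites can be read from the same amplified fragment and are not independent of each other, so this was not tested.

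The less edited sites around members, which the rule left out for their male level, had a like female share. Of 35 sites at 2% to 10% in D.mel males within 50 bp of a member, 29 (82.9%) were at under 50% of the male level in females, with a median female share of 33.8%. Of 62 sites in the same range of male levels that were within 50 bp of another site at 10% or more but of no member, 5 (8.06%) were, with a median female share of 86.2%. Over all 213 sites of that range the count was 112 (52.6%). The 6 exceptions beside members included 3R:20533158, with 3.15% in females and 2.70% in males, which lies 13 bp from the other site 3R:20533145.

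With gaps of at most 350 bp, the members formed 83 groups, of which 68 held a single member, 13 held 2 and 2 held 3 or more. Within the 13 pairs the female share of the male level differed by a median of 2.10 percentage points and by at most 14.7, while levels differed more: X:21904549 had 18.85% in females and 44.40% in males, and X:21904571, 22 bp away, had 3.95% in females and 10.40% in males.

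The largest group was 9 members over 319 bp, from X:21500445 to X:21500764. Their levels differed widely, from 1.30% to 18.5% in D.mel females and from 12.4% to 38.7% in D.mel males. X:21500752 was the highest, with 18.50% in females and 38.70% in males, and X:21500764 followed with 14.30% in females and 35.65% in males. Female shares of the male level ran from 37.1% to 47.8% at 8 of the 9 sites. The exception was X:21500535, with 1.30% in females and 13.05% in males, a share of 9.96%. All 9 were measured in the 16 DGRP male libraries, and at all 9 the stock female level was below the lowest of them. At X:21500752 the libraries ran from 25.5% over a median of 29.75% to 41.1%, and at X:21500535 from 2.00% over 9.35% to 12.6%. The stock male level was above every DGRP library at 4 of the 9. No level in another species is listed for these 9 sites.

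**Figure D3:**
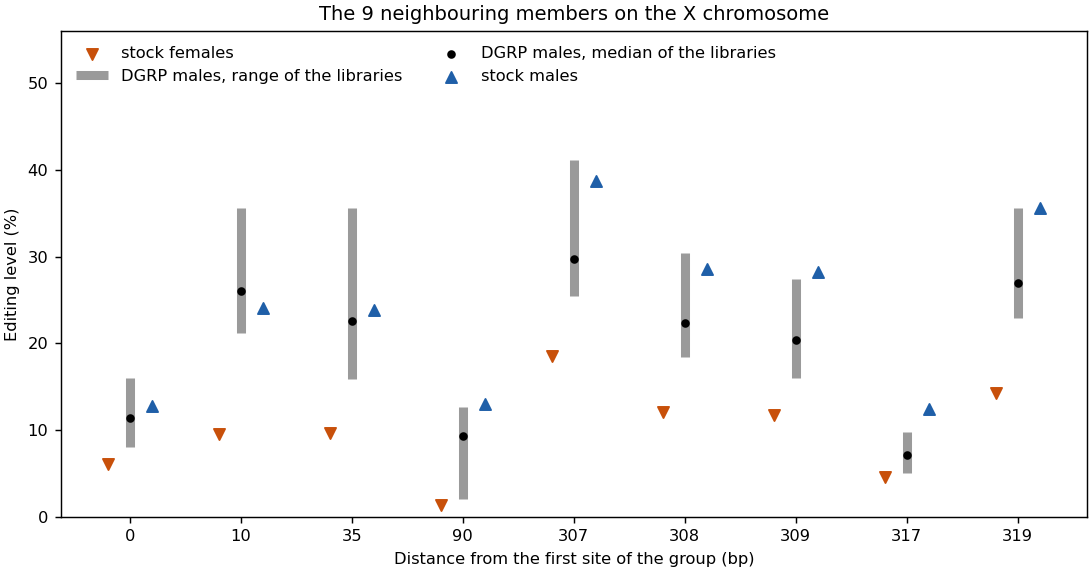
Editing level (%) at the 9 neighbouring members on the X chromosome in D.mel stock females (triangles down), DGRP males (grey bars for the range and black points for the median of 16 libraries) and D.mel stock males (triangles up), by distance in bp from the first of the sites (categories, not to scale). At each site the female value lies under the grey bar.

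The second group of 3 or more members lies on 3R. 3R:14733374 had 14.85% in females and 39.75% in males, 3R:14733397 had 14.25% in females and 39.00% in males, and 3R:14733521 had 6.55% in females and 19.70% in males. The female share of the male level was thus 37.4%, 36.5% and 33.2%, nearly the same while the level itself was about a factor of 2 lower at the last site. In D.sim, 3R:14733397 had 10.25% in females and 34.50% in males, and 3R:14733521 had 4.45% in females and 18.80% in males. In D.yak they had 13.55% in females and 30.15% in males, and 7.10% in females and 12.90% in males, so the last site was just above 50% of the male level there.

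In the 2 species closest to D.mel, most members that could be judged were low in females again. A site was counted in a species where it had a level in both sexes and at least 10% in males. In D.sim, 45 members could be counted and 39 of them (86.7%) had a female level under 50% of the male level. The share over all sites of the table that could be counted in D.sim was 27.0% (63 of 233), and among the other 224 sites it was 3 of 116. In D.yak, 21 of 24 members (87.5%) were low in females, against 25.7% of all sites (39 of 152) and 1 of 85 of the other sites. Of the sites low in D.sim females that could also be judged in D.mel, 39 of 42 were members. These lists rest on 1 value per sex and species, so the counts carry no replicate error. Of the 18 members counted in both D.sim and D.yak, 12 were low in both. The same overlap over all sites is not given, so it is not set against a background.

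At the members counted in these species, the median levels were also near those of D.mel. Counted members had to reach the same male limit in D.mel and in the other species. The likeness of the male medians is thus set in part by this limit. Over the 45 members counted in D.sim, the median was 5.15% in D.sim females and 22.6% in D.sim males, beside 4.95% in D.mel females and 21.9% in D.mel males at the same sites. Over the 24 counted in D.yak it was 7.10% in females and 24.3% in males. At the other sites the medians were 36.7% in D.sim females and 44.2% in D.sim males, and 52.0% in D.yak females and 57.3% in D.yak males. The median female share of the male level in members was 26.0% in D.sim and 33.7% in D.yak, against 88.0% and 91.2% at the other sites. With no limit on the male level there, the 63 members with both sexes in D.sim had lower medians, 3.5% in females and 18.6% in males. The 38 members with both sexes in D.yak had 4.12% in females and 15.6% in males.

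The 6 members that were not low in D.sim females fall into different kinds. 4:895009 had nearly equal levels, 30.90% in females and 31.35% in males, and so had X:5525059, with 9.85% in females and 10.35% in males. 2R:20800371 had 31.15% in females and 56.05% in males, and 2L:6452387 had 20.05% in females and 36.90% in males. 2R:9781439 had 15.25% in females and 26.0% in males, and 3R:5274244 had 7.85% in females and 14.45% in males. The last 4 were lower in females but above the limit of 50%. In D.yak, 2R:3701368 was higher in females (14.60%) than in males (12.65%). 3L:1782670, with 10.30% in females and 18.50% in males, and 3R:14733521 were above 50%.

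In the more distant species fewer members could be counted and fewer of these were low. In D.ana, 5 of 20 members (25%) had a female level under 50% of the male level, against 12.1% of all sites counted there (14 of 116) and 2 of 50 of the other sites. In D.pse the count was 5 of 12 members (41.7%), against 17.6% of all sites (13 of 74) and 0 of 38 of the other sites. In D.vir only 3 members could be counted and 2 were low, against 20.0% of all sites (7 of 35). The median female share of the male level was 65.3% in members and 95.3% at the other sites in D.ana. In D.pse it was 52.1% in members and 98.8% at the other sites, and in D.vir, over its 3 members, 33.8% and 103% at the other sites. The 20 members counted in D.ana had a median of 13.1% in females and 22.5% in males there. The same sites had 5.88% in D.mel females and 22.4% in D.mel males. At these sites the male medians were alike and the female median was higher in D.ana, but both sets of males had to reach 10%. Over all 39 members with both sexes in D.ana the median was 5.25% in females and 10.3% in males. Of the 15 members that were low in D.sim or D.yak and could be counted in D.ana, 4 were low in D.ana females. This overlap, too, is given without the same count over all sites.

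**Figure D4:**
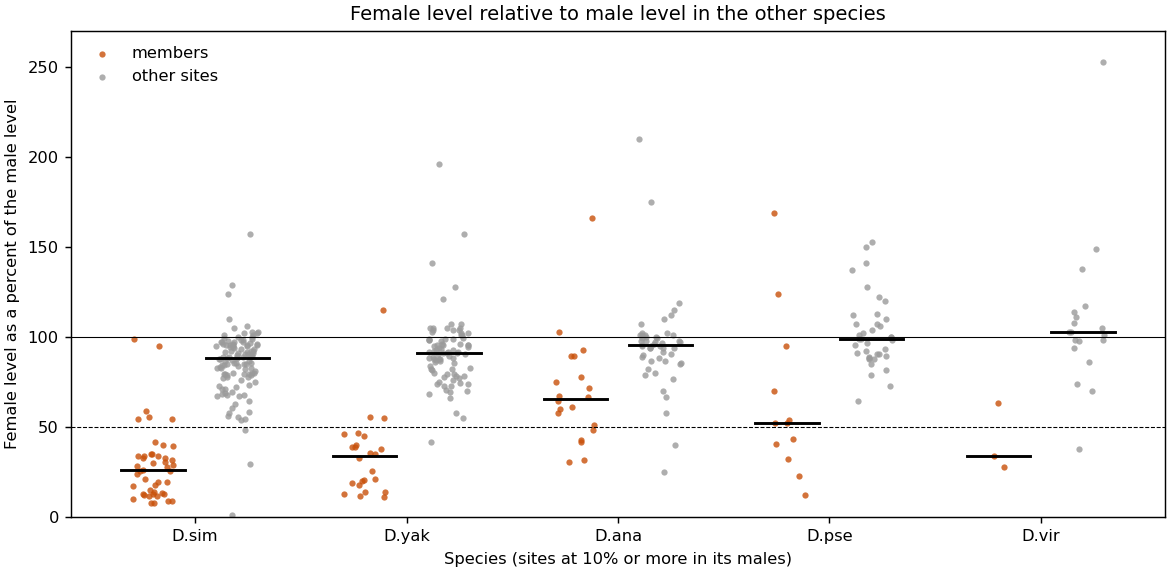
Female editing level as a percent of the male level at sites with at least 10% in males of the species, for members (orange, left) and the other sites (grey, right); each point is 1 site, spread sideways for legibility, black bars are medians, and lines mark 50% and 100%. The median of the members is 26.0% in D.sim and 33.7% in D.yak and 65.3% in D.ana, while that of the other sites lies between 88.0% and 103% in every species.

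Many members could not be counted because the males were under 10% or a sex had no level. Both sexes had a level at 63 members in D.sim, and females were the lower at 59 of these. The counts were 33 of 38 in D.yak and 27 of 39 in D.ana. They were 18 of 28 in D.pse and 15 of 27 in D.vir, with no limit on the male level. Like counts at the other sites are not given, so these counts do not tell whether members differed from the other sites. The shares that follow are another measure, over a narrower set of sites. At the other sites with at least 10% in males, the median female share was 88.0% in D.sim, 91.2% in D.yak and 95.3% in D.ana. It was 98.8% in D.pse and 103% in D.vir. Over the 28 members with both sexes in D.pse the median was 1.6% in females and 1.2% in males, although 12 of them reached 10% or more in D.pse males, and over the 27 in D.vir it was 0.55% in both sexes. Altogether 56 members could be counted in at least 1 other species, and 51 of them were low in at least 1. In every species where they could be counted, 32 were low, but for 22 of these that was a single species. Of the 32 members that could be counted in 2 or more other species, 10 were low in every one. Like counts over the other sites are not given here. For 21 members no level in any other species is listed, and 16 of these are on X, the group of 9 among them.

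Single members differed in how far the low female level extended. 2L:7230012 was low in females of every species in which it was edited: 6.60% in females and 19.70% in males of D.sim, 6.30% in females and 24.60% in males of D.yak, 5.70% in females and 18.65% in males of D.ana, and 10.25% in females and 23.60% in males of D.pse. In D.mel it was the member nearest to the limit, with 7.65% in females and 15.50% in males, and in D.vir it was near 0. It was the single member low in females of 4 other species. 2L:411895 had 5.95% in females and 46.60% in males of D.sim and 6.35% in females and 57.65% in males of D.yak, but 24.90% in females and 41.40% in males of D.ana, above 50% of the male level, and under 1% in both sexes of D.pse and D.vir.

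3R:19929436 had 6.85% in females and 26.90% in males of D.sim and 9.25% in females and 23.95% in males of D.yak. In D.ana it had 15.85% in females and 23.80% in males, and in D.pse 7.45% in females and 14.35% in males. Its female level was thus under 50% of the male level in D.sim and D.yak and between 50% and 100% of it in D.ana and D.pse. 3R:16790050 had 6.45% in females and 19.00% in males of D.sim, 6.45% in females and 16.55% in males of D.yak, and 12.40% in females and 16.50% in males of D.ana. Of these 3 species, the sexes were closest in D.ana, and in D.pse and D.vir the site was under 1% in both sexes. 3R:16819563 was low in D.sim females (2.80%, with 14.65% in males) and had 3.85% in females and 2.15% in males of D.yak. 3L:9885234 had 4.50% in females and 25.75% in males of D.yak and no male level in D.sim. These 2 sites were under 1% in both sexes of the 3 distant species.

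Members low in females of 3 other species were 2L:20346120, 3R:3848991, 3R:20137053 and X:10640518, which were named after their values were seen. X:10640518 had 1.95% in females and 22.75% in males of D.sim, 2.00% in females and 15.70% in males of D.yak, and 3.00% in females and 25% in males of D.pse, next to 1.65% in females and 21.30% in males of D.mel. In these 4 species its female level was at most 3.00% and its male level at least 15.70%.

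Males of the 8 DGRP lines were a second set of D.mel males that the rule did not use. A level was listed for 79 members in both libraries of at least 1 line, for 72 of them in all 16 libraries, and for 27 members in none. Over the 79 members the median of the line means was a median of 92.8% of the stock male level, with quartiles of 77.2% and 105%, against 94.1% at the other sites. At 62 of the 72 members (86.1%) the stock male level lay within the range of the 16 libraries, and at 10 it was above all of them. At the other sites it lay within the range at 122 of 167 (73.1%).

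The D.mel female level was below each of the 16 DGRP male libraries at 58 of 72 members. The share over all sites at 10% or more in stock males was 41.8% (100 of 239), and among the other sites it was 42 of 167. The median of the line means was above 2 times the female level at 65 of 79 members, against 26.0% of all sites (67 of 258). These counts are set in part by the rule, since a member has a low female level by choice. The stock females were set against males of other strains here, so the sex and the strain differ together.

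At 2L:411895 stock females had 7.20%, against 41.0% in the lowest, a median of 54.7% and 68.8% in the highest of the 16 male libraries. At 3R:16846284 stock females had 5.00%, against 34.7%, 46.75% and 62.0% in the same order. At X:818310 stock females had 6.40%, against 29.6%, 36.1% and 43.5%. No male library of the lines came near the female level at these sites, which are among the 12 picked for their wide gap between the sexes. At X:2111839, also among the 12, the lowest library (5.90%) was below the stock females (6.95%). At 17 of the 79 members with a level in the lines, 14 of them measured in all 16 libraries, at least 1 library was at or below the female level. Library 2 of line 774 was under 50% of every other library at 7 members, for example 3R:20137053, which had 3.10% in stock females, 0.5% in that library and 16.2% in the other library of the line.

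Some members had a different level in the lines than in the stock males. X:2111839 had 5.90% to 20.5% in the DGRP libraries with a median of 13.35%, against 39.85% in stock males, so all 16 were below the stock males. 2R:9781439 had 7.10% to 22.1% with a median of 14.8%, against 25.40% in stock males, and 3R:20137053 had 0.5% to 22.7% with a median of 12.6%, against 24.00% in stock males. 3R:1476073 had a level in 8 libraries, from 1.80% over a median of 3.65% to 76.0%, against 16.10% in stock males. Of these libraries, 5 were below and 3 above the stock males, and the median over its 2 lines with both libraries was 27.35%. Its 2 libraries of line 26 had 1.80% and 66.5% and those of line 352 had 3.9% and 37.2%. Libraries of the same line thus differed more than the means of these lines, 34.15% and 20.55%.

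Whether members differed between the lines was tested by a moderated F test in limma over the 8 lines, fitted to all 478 sites with a level in every library and a mean level of at least 1%. Levels were taken to a log2 scale of edited over unedited share with an offset of 0.01, and p-values were adjusted by Benjamini-Hochberg over all 478 sites. Of the sites tested, 19.2% (92) had an adjusted p under 0.05. Of the 72 members tested, 9 did (12.5%). Among the other sites at 10% or more in stock males 46 of 167 passed (27.5%). Whether these shares differ was not tested. The fit took no account of the replicate number of a library, and the count of members changed in a fit that did, given at the end. The range of the line means was similar, with a median of 9.35 percentage points in the 72 members and 8.85 in the 167 other sites. The 2 libraries of a line are labelled as replicates. The study calls its replicates biological with some exceptions, and which exceptions fall among the lines is not given in the sources used here, so p-values measure the spread between libraries, which may in part be technical. Both columns of line 721 are named M2 and may be repeat runs of 1 sample, and with them averaged to 1 sample 8 of the 72 members passed (11.1%, with 15.7% of all sites). The count of 9 depends on line 774: without its library 1 it was 23 of 72 members (31.9%, with 40.2% of all sites), and without the line it was 14 (19.4%, with 24.1% of all sites).

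The 9 members were X:19535625, 3R:482227, 2L:6452387, 3R:5595147, 2R:20800371, 2L:13188408, X:2111839, 3L:6943212 and 3L:6943210. X:19535625 stood apart. It had 8.50% and 7.50% in the 2 libraries of line 26 and 88.3% to 99.9% in the 14 libraries of the other 7 lines (limma adjusted p = 0.000101), with 1.25% in stock females and 10.20% in stock males. Line 26 was thus close to the stock males, and the other lines were read as G almost throughout. X:19535621, which lies 4 bp away and is also a member, had 3.60% to 25.7% in the 16 libraries with a median of 10.95%, next to 1.70% in stock females and 16.70% in stock males. Its lines did not split in this way. The genotypes of the lines at these positions were not analysed here. Whether the G read at X:19535625 came from editing or from the genome of the lines was therefore not tested.

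At 3R:482227 the 16 libraries ran from 5.60% over 21.2% to 35.9%. Line 352 was highest, with 35.9% and 28.6%, and line 441 lowest, with 8.80% and 5.60% (limma adjusted p = 0.000151). Libraries of these lines did not overlap. Stock males had 10.75% and stock females 2.10%, so both were near or under the lowest lines, and the lowest library was still above the stock females. At 3R:5595147 the libraries ran from 15.3% over 27.55% to 39.4%, highest in line 786 (39.4% and 35.9%) and lowest in line 26 (18.5% and 15.3%; limma adjusted p = 0.00174), with 5.70% in stock females and 22.45% in stock males.

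At 2L:6452387 line 786 had 41.1% and 35.5% and line 774 had 21.8% and 11.8%, around a median of 31.1% over the 16 libraries (limma adjusted p = 0.0196), with 8.90% in stock females and 30.30% in stock males. Of the 8 lines, 5 had means between 30.7% and 33.6%, so the range came from lines 441, 774 and 786. At 2R:20800371 line 26 had 64.6% and 66.9% and line 774 had 50.7% and 49.2%, around a median of 57.85% (limma adjusted p = 0.0127), with 23.95% in stock females and 53.75% in stock males. 3L:6943210 and 3L:6943212 lie 2 bp apart. Line 441 was highest at both, with 14.7% and 10.3% at 3L:6943210 and 19.1% and 13.7% at 3L:6943212, and line 26 was lowest at 3L:6943210, with 5.20% and 3.70%. Stock females had 5.25% and 5.65% there and stock males 12.80% and 15.30%, so the lowest lines were at the level of stock females.

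**Figure D5:**
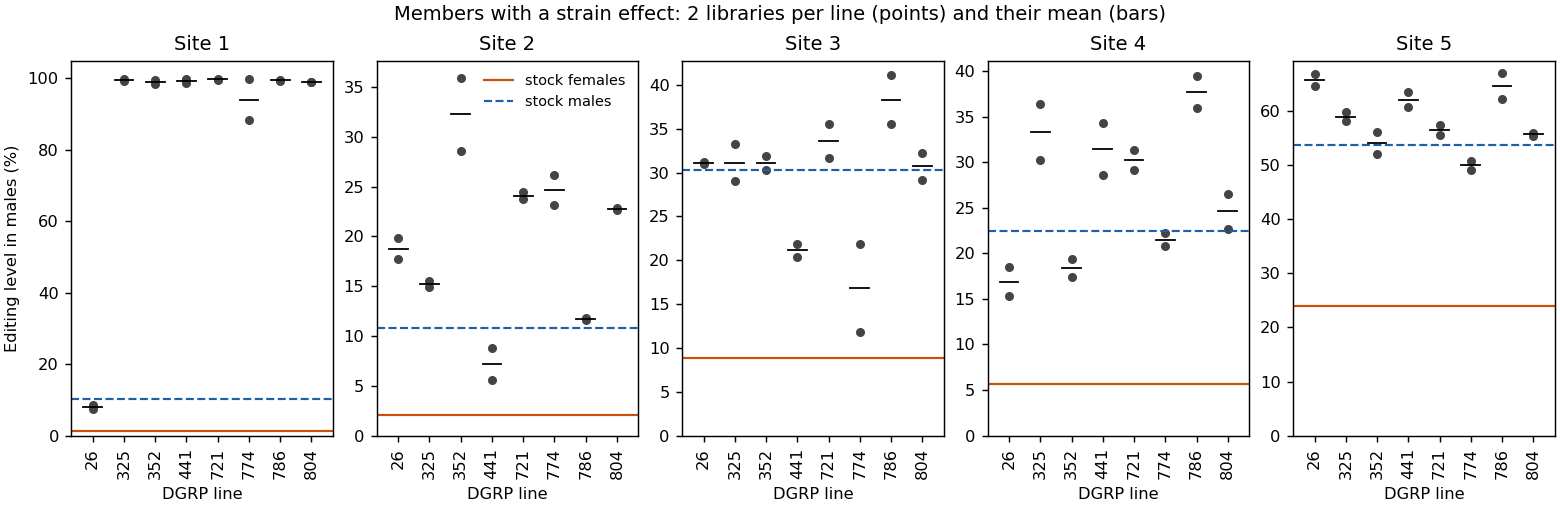
Editing level (%) in the 2 libraries of each DGRP line (points) and their mean (short bars) at the 5 members with a strain effect and the widest range of line means, in the order X:19535625, 3R:482227, 2L:6452387, 3R:5595147 and 2R:20800371; each panel has its own axis from 0, and the lines mark D.mel stock females (solid) and stock males (dashed). Line 26 is at 8.0% at the first site and the other lines are at 94.05% or more.

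Single libraries also moved with these results. Over the 72 members measured in all 16 libraries, the median level was lowest in library 2 of line 804 (17.1%) and library 2 of line 774 (17.3%) and highest in library 1 of line 786 (24.6%). Library 2 of line 774 was the lowest of all at 21 of the 72 members, and library 1 of line 786 the highest at 27. The same counts over all sites are not given, so they describe the libraries and not the members. The 2 libraries of line 774 differed by over 10 percentage points at 18 of 76 members, against 0 to 11 members in the other lines. Over all sites at 10% or more in stock males, members included, they did so at 44 of 253. In the other lines the count over all these sites was 3 to 20. The wide difference in line 774 was thus not limited to members.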

How the data were processed

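Per the labels and the study's methods, RNA from 10 whole flies per sample was amplified at chosen loci, and the authors aligned reads with TopHat to the genome of each species and kept sites covered by at least 50 reads; for the species analyses the methods also ask that replicates differ by at most 10 percentage points, which the deposited single values do not show. What the authors deposited is the edited fraction of reads at a site, from 0 to 1 and without further normalization, in 3 tables: females and males of 6 species, as the authors' single value, and 16 DGRP libraries. Here they were multiplied to percent. Of the positions in the DGRP table, 16 were written with NA in place of the digits 200 and were restored. 0 columns of values were left unassigned, and the RNA-seq data of the study were not used here.

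The members and lists were chosen with earlier results of these data known. Named sites were the 12 largest male minus female differences, the 6 members with both sexes in the most other species (ties by D.mel male level), the 5 members past the strain threshold with the widest range of line means, the sites next to the limits, groups of at least 3 members with gaps of at most 350 bp, and the 3 members farthest from the DGRP median in each direction. The test across lines used limma 3.58.1 in R 4.3.3. In simulated data of 478 sites it found 42 of 50 shifts of 1 line by 3 log2 units and 19 of 50 shifts by 1 unit, with 2 false calls. The simulated noise was independent and equally wide in every library, with no outlying library and no shift by replicate number. The false calls thus do not give the error rate of the fit to the data. Tables were handled in Python 3.11.15 with pandas 2.3.3. Alternatives changed the limits of the rule, the offset, the filter, the lines and the libraries.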

Additional observations from a re-analysis of the deposited data

Results flagged for a closer look

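At 4 members the female level was the higher by at least 5 percentage points in another species, the opposite direction to D.mel. At 2R:3701368, D.ana had 41.75% in females and 25.15% in males (female minus male 16.6 points), against 4.75% in females and 16.90% in males of D.mel. At 4:895009, D.pse had 69.0% in females and 55.5% in males (13.5 points), against 24.45% in females and 52.55% in males of D.mel. At 2L:6452387, D.pse had 22.7% in females and 13.45% in males (9.25 points), against 8.90% in females and 30.30% in males of D.mel. At 2R:9781439, D.pse had 18.15% in females and 8.90% in males (9.25 points), against 10% in females and 25.40% in males of D.mel. The tables hold 1 value per species and sex, so the difference between species was not tested at these sites.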

How the results depend on the processing

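The list held 174 sites with a male level of at least 5% and 52 with at least 20%. With at least 20% in males of the other species, 24 of 28 members were low in D.sim females, 13 of 13 in D.yak, 1 of 11 in D.ana, 2 of 6 in D.pse and 1 of 2 in D.vir. With a male level of at least 5% the count in D.vir was 4 of 6, and with a female share under 60% the count in D.pse was 8 of 12. Shares over all sites at these changed limits are not given. The counts therefore do not tell how far members differed from all sites there. The members with a strain effect numbered 14 without line 774 and 8 to 23 when 1 library was left out, 23 of them without library 1 of line 774. Of the 9 members, 8 or 9 were called in each of these fits, and the adjusted p of the 5 sites with the widest range stayed under 0.05 in all 24 alternative fits (highest 0.0472, at 2L:6452387). The 5 sites were chosen from the main fit, and the alternative fits reuse most of its libraries. Their p-values in these fits are thus not independent support. Leaving out 1 library gave 63 to 66 members above 2 times the female level and 58 to 64 members below every library, an alternative chosen after seeing the data. For these 2 counts, too, the shares over all sites are not given.

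Over 7 lines the deviations of same-numbered libraries correlated weakly, from -0.13 to 0.31 (median 0.12, 21 pairs of lines). Library 1 still had the higher median level over the members in all 7 of these lines. A shift that goes with the replicate number therefore cannot be set aside, and the main fit did not account for it. With the replicate block, fitted without line 721, whose columns both carry the number 2, 14 of 72 members passed (19.4%, with 18.6% of all sites), against 8 without the block over the same lines (11.1%, with 15.3% of all sites). This was the single fit in which the share of members was above that of all sites. The block fit and the fit with line 721 averaged to 1 sample were chosen after seeing the data, and the block over all 8 lines was not run. The remaining alternatives left each count within 1.5 times its value. Depth is unknown, so differences of a few points at low levels cannot be judged for the species.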
